A study of Homo sapiens with 6 samples.

Results

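Among the genes in the deposited expression table of AGS cells, 21 of 1099 encode translation factors, aminoacyl-tRNA synthetases or proteins annotated to the start or elongation of translation. They were taken by their gene symbol (EIF or EEF followed by a digit, 15 genes), by the table's KEGG pathway of aminoacyl-tRNA biosynthesis (2 genes), or by its gene ontology terms for translational initiation (13 genes) and elongation (1 gene), and a gene could match more than once. Another 48 genes that matched were left out for ribosomal protein names, and a further exclusion, of genes in the KEGG spliceosome pathway, removed 0 matching genes. The 21 members comprise 12 initiation factors (EIF1AX, EIF2A, EIF2S1, EIF2B2, EIF2B5, EIF3B, EIF3J, EIF4E, EIF5, EIF5B, PABPC1 and DHX33), the elongation factor subunit EEF1B2, the synthetase genes NARS1 and FARSA with EEF1E1 of the synthetase complex, the ribosome-associated genes ABCE1, EIF6 and FAU, and the control genes EIF2AK2 and EIF4EBP2. FAU encodes a ribosomal protein fused to a ubiquitin-like domain, and its name does not show this.

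AGS is an established human gastric adenocarcinoma line, labelled WT (wild type), and all 6 libraries came from it. In 3 libraries the cells had received vehicle and in 3 saikosaponin-D (SSD), a plant triterpenoid saponin, each for 24 h before polyA RNA was sequenced. The labels give a dose of 10 μM while the methods of the study give a lower one. The labels' protocol fields name a prostate line and a compound called L14-8, so that dose and compound name are not settled. The column names and the methods of the study name AGS, which was taken as the line despite that field. Nothing in the labels says that the 3 libraries of a group came from separate cultures, and p-values then measure only the spread between these libraries, which may be technical. The table holds the genes with the smallest p-values of the authors' own comparison of the same 6 libraries, out of 11289, so every member was present because of the contrast described here. Neither the count of members called nor their p-values is therefore independent evidence of a treatment effect on translation genes, and genes outside the table were not analysed here.

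Translation of an mRNA starts when the cap-binding protein eIF4E and its partners bring the small ribosomal subunit, loaded with eIF3, eIF1A and a complex of eIF2, GTP and the initiator tRNA, to the 5′ end. After the start codon is found, eIF5 stimulates GTP hydrolysis by eIF2, eIF5B joins the large subunit, and eIF2B reloads eIF2 with GTP. Stress kinases, one of which is PKR (EIF2AK2), phosphorylate the alpha subunit of eIF2 and so turn eIF2 into an inhibitor of eIF2B, while 4E-BP proteins such as EIF4EBP2 bind eIF4E. Aminoacyl-tRNA synthetases charge the tRNAs used in elongation. Many genes of this machinery are known targets of Myc, and cancer cells commonly express them at high levels.

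Upstream sequences are shown for 3 members whose mRNA levels are described below, because each holds a known binding sequence of a transcription factor. They were taken from RefSeq promoter windows (GRCh38.p14, 250 bases before to 50 after the annotated start), which were found for 19 of the 21 members, all but PABPC1 and DHX33. Capitals mark the motif, and all sequences read 5′ to 3′ on the gene's strand. EIF4E has the Myc-Max E-box CACGTG at 2 places, shown in the 214 bases of chr4:98929170-98929383 (minus strand). EIF2AK2 has an interferon-stimulated response element, searched as GAAA, any 2 bases and GAAA, at its annotated start, shown in 58 bases of chr2:37156969-37157026 (minus strand). ABCE1 has the cAMP response element TGACGTCA, shown in 68 bases of chr4:145098183-145098250 (plus strand).
EIF4E: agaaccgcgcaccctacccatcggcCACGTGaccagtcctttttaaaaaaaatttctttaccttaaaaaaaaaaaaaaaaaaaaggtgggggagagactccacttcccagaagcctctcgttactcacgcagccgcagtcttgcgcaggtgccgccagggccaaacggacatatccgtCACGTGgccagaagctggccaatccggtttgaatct
EIF2AK2: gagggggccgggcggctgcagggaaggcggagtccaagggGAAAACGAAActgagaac
ABCE1: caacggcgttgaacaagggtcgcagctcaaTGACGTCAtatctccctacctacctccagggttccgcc

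Both strands of the windows were searched for 5 motifs, none of which contains another. The E-box was found in 2 of 19 members (EIF4E and EIF2AK2) and in 7.26% of all 35116 promoters, and the interferon element in 3 members (EIF2AK2, EIF2A and EIF6) and 3.57% of all promoters. The amino acid response element, searched as TGATGNAA, was found in NARS1 alone (3.62% of all promoters) and the cAMP response element in ABCE1 alone (1.85%). The NRF1 sequence, searched as GCGC, AT and GCGC in a row, was in no member window and in 1.24% of all promoters. Of the members with an interferon element, EIF2AK2 was higher under SSD, and EIF6 and EIF2A did not pass the test. An annotated start with a C followed by at least 4 pyrimidines is the mark of mRNAs regulated through a 5′ terminal oligopyrimidine tract. It was found for EIF2A and FAU of the 19 members, against 4.07% of all promoters. A single annotated start per gene was read, so that members without a match may still carry such a tract. These matches describe letters in the windows and not bound sites.

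Expression levels are given in TPM, the read share of a gene in its library after correction for gene length, as the authors deposited them. Under vehicle the members ranged from 25.8 ± 1.31 TPM (SD, n = 3) for DHX33 to 1350 ± 20.7 TPM (SD, n = 3) for FAU, with a median of 141 TPM against 53.9 TPM over all genes of the table. FAU was followed by EEF1B2 at 782 ± 37.0 TPM (SD, n = 3), which helps reload the elongation factor eEF1A with GTP, and by the poly(A)-binding protein gene PABPC1 at 648 ± 8.84 TPM (SD, n = 3). Under SSD the order of EEF1B2 and PABPC1 was turned, with 749 ± 33.4 and 791 ± 60.7 TPM (SD, n = 3), and the values of the 2 genes overlapped between libraries. EIF6, EIF2S1 and EIF5 formed the next level, between 334 and 498 TPM in the vehicle libraries. The other 15 members stayed under the lowest EIF5 value in every library, with NARS1 the highest of them at 196 ± 12.7 TPM (SD, n = 3) under vehicle.

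**Figure D1:**
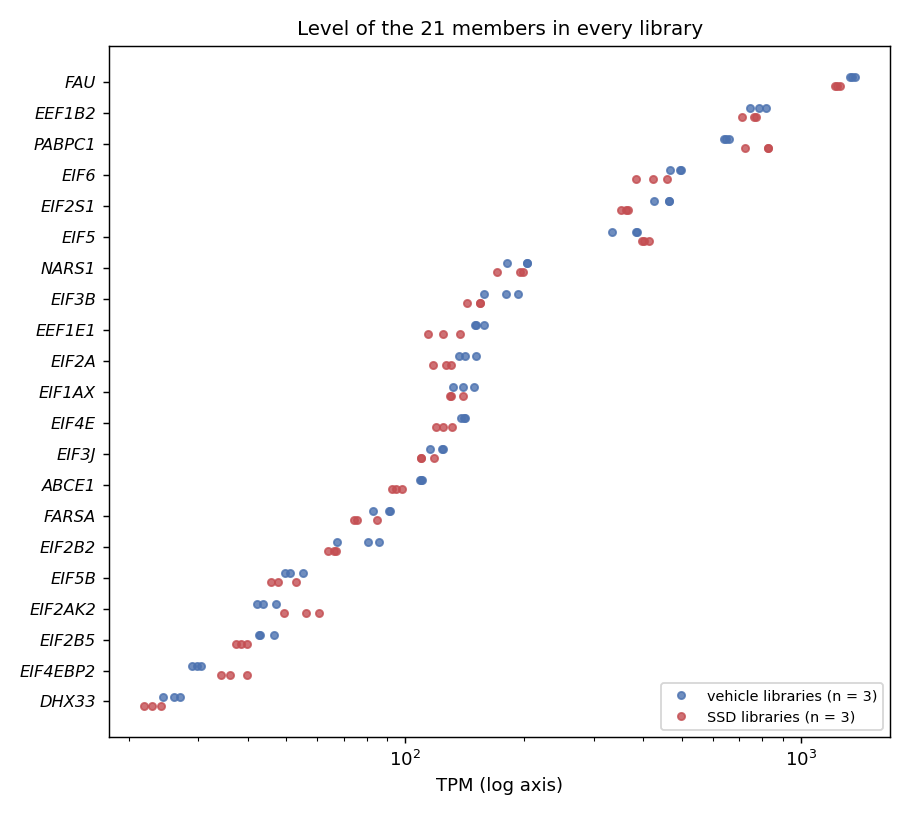
TPM on a log axis of each of the 21 members in the 3 vehicle libraries (blue) and the 3 SSD libraries (red), ordered by the vehicle mean from DHX33 at 25.8 TPM to FAU at 1350 TPM. Red points lie right of all blue points for PABPC1, EIF5, EIF2AK2 and EIF4EBP2 only, and left of them for 11 members.

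Under SSD, 4 members were higher (EIF2AK2, EIF4EBP2, PABPC1 and EIF5) and 4 lower (EIF2S1, ABCE1, FAU and EEF1E1) at an adjusted p under 0.05 (quasi-likelihood test of edgeR, with p-values adjusted for 11289 genes), and 13 did not pass. In the authors' own test of the same libraries, 1055 of the 1099 genes had an adjusted p under 0.05. A member that did not pass here is therefore not shown to be unchanged. Values are shares of a library, and a change in the number of cells or in the RNA per cell cannot be told apart from them. Over the table the background is 33.8% of genes called higher and 19.4% called lower, against 4 of 21 members in each direction, so that the share of members called lower was close to that of the table. The fitted change was negative for 17 of the 21 members, against 64.8% of all genes, and the median log2 fold change was -0.13, against -0.14 for all genes. No member changed by 1.5-fold, which 7.19% of all genes did with an adjusted p under 0.05. These values use a scale between libraries taken from each library's ratio of counts to TPM, which reflects whole libraries. On the TMM scale, which takes most genes of the table as unchanged, log2 fold changes lay 0.07 higher at the median. There, the same 4 members were higher and only EIF2S1 was lower (background 35.0% and 7.92%), with 16 negative fold changes (background 62.5%).

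**Figure D2:**
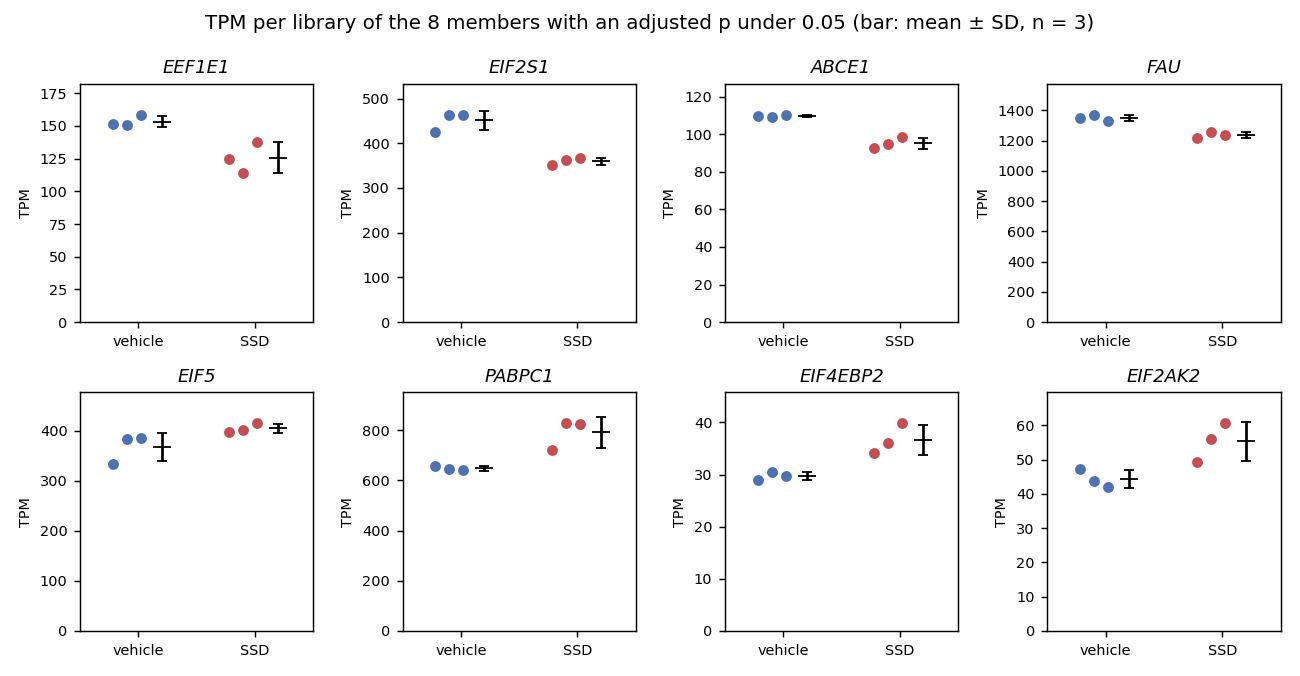
TPM in each of the 3 vehicle libraries (blue) and 3 SSD libraries (red) for the 8 members with an adjusted p under 0.05, with the mean and SD beside the points and each axis starting at 0. The 2 groups do not overlap for any of the 8 genes, and the narrowest gap in proportion is that of EIF5, between 385 and 397 TPM.

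In TPM, all SSD values were below all vehicle values for 11 of the 21 members (background 44.2%) and above them for 4 (background 32.2%). The 6 members whose groups overlapped were FARSA, EIF3J, EIF1AX, EEF1B2, EIF5B and NARS1. The two-sided exact permutation test over these 6 libraries has 0.1 as its smallest possible p, and it gave 0.1 for each of the 15 members without overlap. Summed over the 21 members, the level was 5628 ± 41.8 TPM with vehicle against 5366 ± 105 TPM with SSD (SD, n = 3 each), with a change of -4.66% (exact permutation test, p = 0.1). The background fell as well: all genes of the table held 33.1%, 32.8% and 32.3% of a library's TPM with vehicle. With SSD they held 31.1%, 30.1% and 30.4%, so that a lower sum is not particular to the members.

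The strongest fall among initiation factors was that of EIF2S1 (ENSG00000134001; chromosome 14, plus strand, 67359997 to 67386516 in GENCODE release 29, GRCh38), which encodes the alpha subunit of eIF2 that stress kinases phosphorylate. Its level was 426, 464 and 464 TPM with vehicle against 351, 363 and 366 TPM with SSD. The groups lay apart, and the mean fell by 20.2%. From the counts the log2 fold change was -0.26 ± 0.0504 (SE, adjusted p = 0.0123, edgeR). Without vehicle replicate 2 or vehicle replicate 3 the adjusted p was 0.0613 and 0.0531, and with DESeq2's size factors 0.112. EIF2S1 was the one lower member that also passed on the TMM scale (-0.18, adjusted p = 0.0329) and in limma on log2(TPM + 1) (-0.32, adjusted p = 0.0445), but in limma on log2(TPM + 0.1) its adjusted p was 0.0502.

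EIF2B2 and EIF2B5, which encode the beta and epsilon subunits of the exchange factor eIF2B, had lower levels in every SSD library but did not pass the test. EIF2B2 had 67.1, 80.7 and 86.0 TPM with vehicle against 66.1, 66.8 and 63.7 TPM with SSD. The gap between the groups was narrow, since vehicle replicate 1 lay close to SSD replicate 2. Its log2 fold change was -0.23 ± 0.0734 (SE, adjusted p = 0.148, edgeR). EIF2B5, the catalytic subunit, had 42.8, 42.9 and 46.6 TPM with vehicle against 38.5, 37.5 and 39.8 TPM with SSD. Its log2 fold change was -0.18 ± 0.0545 (SE, adjusted p = 0.126, edgeR). The ratio of EIF2B2 to EIF2B5 was 1.76 ± 0.171 (SD, n = 3) under vehicle and 1.70 ± 0.0931 (SD, n = 3) under SSD, a difference smaller than the spread between replicates.

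EIF5 (ENSG00000100664; chromosome 14, plus strand, 103333544 to 103345025), the GTPase-activating factor for eIF2, was higher under SSD. Its level was 334, 383 and 385 TPM with vehicle against 397, 402 and 414 TPM with SSD. Vehicle replicate 1 stood apart from the other vehicle libraries, and the mean was 10.2% higher under SSD. In counts, the log2 fold change was 0.22 ± 0.0535 (SE, adjusted p = 0.0333, edgeR). The call was lost without vehicle replicates 1, 2 or 3 (adjusted p = 0.0809, 0.174 and 0.116) and without SSD replicate 2 (0.0891), and in limma on log2(TPM + 1) the change was 0.14 (adjusted p = 0.997). The ratio of EIF5 to EIF2S1 within a library was 0.785, 0.825 and 0.830 under vehicle and 1.13, 1.11 and 1.13 under SSD. By TPM, EIF5 was thus less abundant than EIF2S1 in the vehicle libraries and more abundant in the SSD libraries. In counts, EIF5 had a mean of 11320 per library at a listed length of 3417 bases, against 5126 at 2390 for EIF2S1. Which of the 2 genes is the more abundant therefore depends on the transcript lengths behind the TPM values. This pair was chosen with the values known, and no test is given for it.

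PABPC1 (ENSG00000070756; chromosome 8, minus strand, 100685816 to 100722809), which binds the poly(A) tail and links it to the cap complex, had 657, 646 and 640 TPM under vehicle. Under SSD it had 721, 827 and 826 TPM. All 3 SSD libraries lay above the vehicle libraries, with replicate 1 the nearest to them, and the mean was 22.2% higher. This was a log2 fold change of 0.29 ± 0.0570 (SE, adjusted p = 0.0115, edgeR), or 0.36 on the TMM scale (adjusted p = 0.00193). The adjusted p rose to 0.0648 without vehicle replicate 2, to 0.0630 without vehicle replicate 3 and to 0.0675 without SSD replicate 2. With replicate number as a block it was 0.0725, and in limma 0.105 on log2(TPM + 1) and 0.119 on log2(TPM + 0.1). GENCODE release 29 lists 13 pseudogene copies of PABPC1 that could share its reads.

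The cap-binding protein gene EIF4E had 139, 141 and 141 TPM with vehicle against 119, 124 and 132 TPM with SSD. The vehicle libraries were nearly equal and all lay above the SSD libraries. Its log2 fold change was nevertheless -0.13 ± 0.0491 (SE, adjusted p = 0.303, edgeR) and did not pass. EIF4EBP2 (ENSG00000148730; chromosome 10, plus strand, 70404379 to 70428618), which encodes a repressor that binds eIF4E, had 28.9, 30.5 and 29.7 TPM with vehicle against 34.2, 36.1 and 39.8 TPM with SSD. It was higher in all 3 SSD libraries, by 23.4% in the mean. Its fitted log2 change was 0.31 ± 0.0571 (SE, adjusted p = 0.00904, edgeR). EIF4EBP2 was the only member that stayed past the threshold with each library left out in turn (adjusted p from 0.00524 to 0.0429), and it did not pass in limma on log2(TPM + 1) (adjusted p = 0.101). The ratio of EIF4EBP2 to EIF4E within a library was 0.208, 0.216 and 0.211 under vehicle and 0.286, 0.290 and 0.302 under SSD, again a pair chosen with the values known.

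EIF2AK2 (ENSG00000055332; chromosome 2, minus strand, 37099210 to 37157065) encodes PKR, a kinase of eIF2 alpha that is activated by double-stranded RNA and is induced by interferon. It had 47.1, 43.8 and 42.1 TPM with vehicle against 49.3, 56.1 and 60.6 TPM with SSD. Vehicle replicate 1 lay only a little below SSD replicate 1, and the mean was 24.8% higher under SSD. The fitted log2 change was 0.38 ± 0.0867 (SE, adjusted p = 0.0262, edgeR), the largest of the 21 members. The call was lost without vehicle replicate 2 (adjusted p = 0.125), vehicle replicate 3 (0.110) or SSD replicate 2 (0.0709). It was also lost with replicate number as a block (0.105) and in limma on log2(TPM + 1) (0.170) and log2(TPM + 0.1) (0.188). The ratio of EIF2AK2 to EIF2S1, also a pair chosen with the values known, was 0.0987 ± 0.0106 (SD, n = 3) under vehicle and 0.154 ± 0.0125 (SD, n = 3) under SSD. These are mRNA levels, and the phosphorylation of eIF2 alpha was not measured here.

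**Figure D3:**
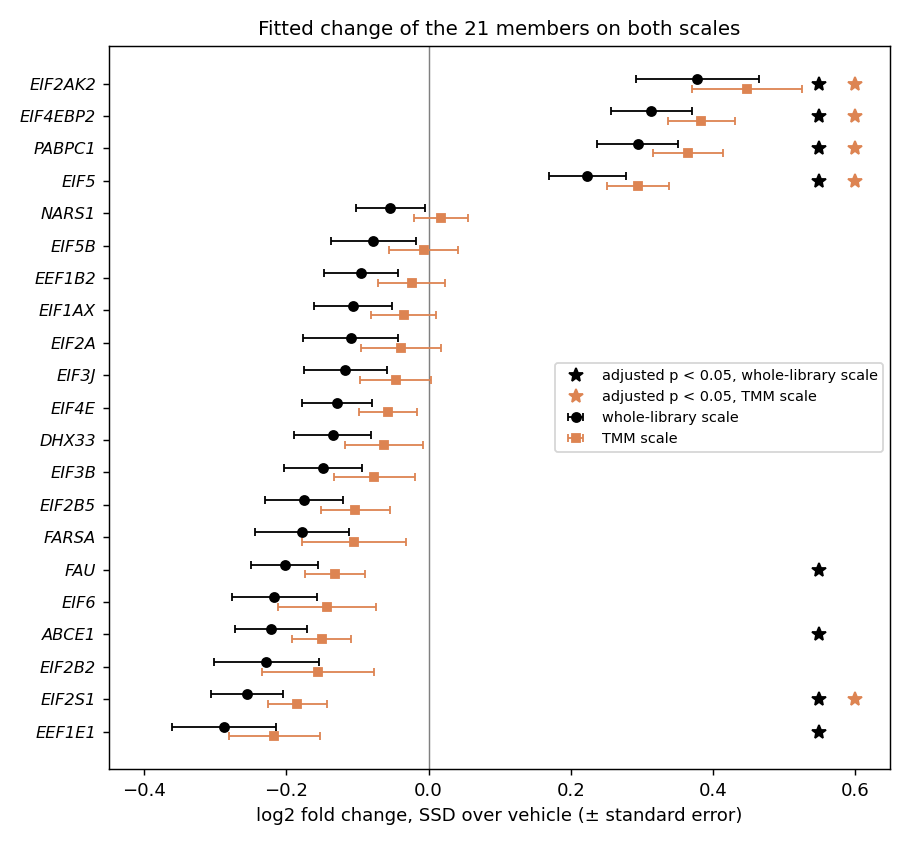
Log2 fold change of SSD over vehicle with its standard error for the 21 members (3 libraries per group), on the whole-library scale (black circles) and the TMM scale (orange squares), and stars for an adjusted p under 0.05 on each scale. Values run from -0.29 for EEF1E1 to 0.38 for EIF2AK2 on the whole-library scale, and EIF2AK2, EIF4EBP2, PABPC1, EIF5 and EIF2S1 carry both stars.

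EIF3B, a core subunit of the eIF3 scaffold, had 158, 180 and 193 TPM with vehicle against 154, 155 and 143 TPM with SSD. The groups did not overlap in TPM but did in scaled counts, and the log2 fold change was -0.15 ± 0.0550 (SE, adjusted p = 0.268, edgeR). EIF3J, a loosely bound eIF3 subunit, EIF1AX, which promotes scanning, EIF2A, a factor that can carry the initiator tRNA without eIF2, EIF5B, the GTPase of subunit joining, and DHX33, an RNA helicase, had log2 fold changes between -0.14 and -0.078 and did not pass. EEF1B2 (-0.095) and NARS1 (-0.054) lay closest to 0 with EIF5B. These 7 members had adjusted p-values from 0.370 upwards, and 5 of them overlapped between the groups in TPM. The sign for NARS1 turned on the TMM scale (0.018), and that for EIF5B with DESeq2's size factors (0.013).

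Of the genes grouped with the synthetases, the scaffold gene EEF1E1 passed the test and the synthetases NARS1 and FARSA did not. EEF1E1 (ENSG00000124802; chromosome 6, minus strand, 8073360 to 8102578) encodes AIMP3, a scaffold protein of the complex that joins several cytosolic synthetases, and not an elongation factor proper. Its level was 151, 150 and 159 TPM with vehicle against 125, 114 and 138 TPM with SSD. The SSD libraries were more spread than the vehicle libraries but all lower, and the mean fell by 18.1%. The log2 fold change of -0.29 ± 0.0730 (SE, adjusted p = 0.0460, edgeR) was the lowest of the members and lay near the threshold. The call was lost on the TMM scale (adjusted p = 0.149), with a minimum mean of 500 counts (0.0575), and without any one library other than SSD replicate 3 (0.0619 to 0.248). Exons of EEF1E1 overlap those of the read-through gene EEF1E1-BLOC1S5.

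FARSA, the alpha subunit of phenylalanyl-tRNA synthetase, had 82.8, 91.3 and 91.1 TPM with vehicle against 84.7, 75.7 and 74.3 TPM with SSD. The groups overlapped, since SSD replicate 1 lay above vehicle replicate 1. Its log2 fold change was -0.18 ± 0.0663 (SE, adjusted p = 0.278, edgeR). NARS1, the asparaginyl-tRNA synthetase of the cytosol, had 196 ± 12.7 TPM with vehicle against 188 ± 14.9 TPM with SSD (SD, n = 3 each), and the groups overlapped.

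The ribosome-associated genes all had lower levels in every SSD library. ABCE1 (ENSG00000164163; chromosome 4, plus strand, 145097932 to 145129179), the ATPase that splits ribosomes after termination, had 110, 109 and 110 TPM with vehicle against 92.7, 94.6 and 98.3 TPM with SSD. The vehicle libraries varied little (SD 0.583 TPM), and the mean fell by 13.2%. The fitted log2 change was -0.22 ± 0.0507 (SE, adjusted p = 0.0259, edgeR), and on the TMM scale -0.15 (adjusted p = 0.109). Without any one library other than SSD replicate 3 its adjusted p was between 0.0772 and 0.157.

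FAU (ENSG00000149806; chromosome 11, minus strand, 65120628 to 65122473) had 1350, 1371 and 1329 TPM with vehicle against 1220, 1258 and 1234 TPM with SSD. The groups lay apart by more than the spread within either, and the mean fell by 8.34%. The log2 fold change from counts was -0.20 ± 0.0477 (SE, adjusted p = 0.0306, edgeR) and in limma on log2(TPM + 1) -0.13 (adjusted p = 0.582). On the TMM scale it was also -0.13 (adjusted p = 0.230). The call was lost without vehicle replicate 2 (adjusted p = 0.219), vehicle replicate 3 (0.107), SSD replicate 1 (0.0913) or SSD replicate 2 (0.132). EIF6, which keeps free large subunits from joining small ones, had 466, 498 and 496 TPM with vehicle against 458, 424 and 384 TPM with SSD. SSD replicate 1 was close to vehicle replicate 1, whereas SSD replicate 3 stood lowest. Its log2 fold change was -0.22 ± 0.0597 (SE, adjusted p = 0.0693, edgeR), and -0.28 (adjusted p = 0.0144) without SSD replicate 1.

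**Figure D4:**
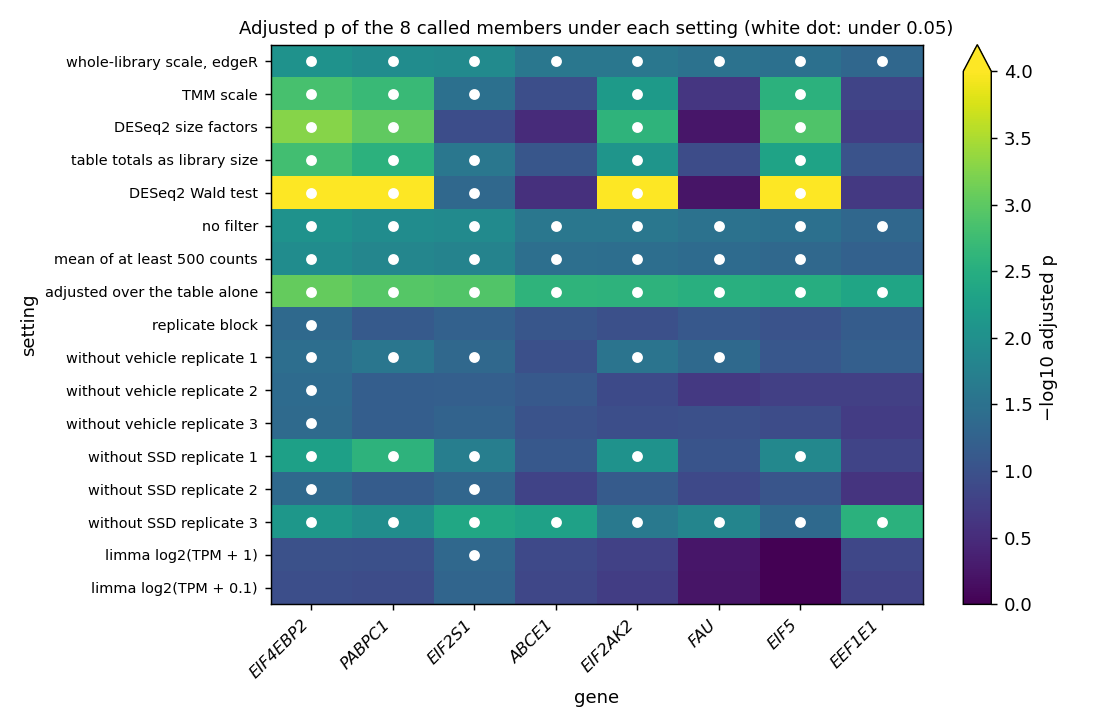
Colour gives −log10 of the adjusted p for the 8 members with an adjusted p under 0.05 (columns) under the main test and the 16 other settings (rows), with a white dot where it is under 0.05. EIF4EBP2 has a dot in every row but the 2 limma rows and EIF2S1 lacks 5 dots. The row without a filter repeats the main test, since the filter removed no gene.

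The counts behind a TPM value depend on which transcripts of a gene are read. The log2 change in counts per TPM, scaled between libraries, lay between -0.076 (FAU) and 0.085 (EIF2A) for the members, against a spread of 0.0712 (SD) over all genes. For EIF2S1 it was 0.067 and for EIF5 0.079, and the fall of EIF2S1 was therefore larger in TPM than in counts and the rise of EIF5 smaller. Transcripts were not separated in the table.

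Wider lists of the translation machinery were compared with the table. Of 51 initiation factor genes, EIF6 included and DHX33 not, the table holds 12, against 1099 of all 11289 genes. The 51 were not limited to the genes the authors tested, and the members had a median of 3350 counts against 1557 over the table. The 2 shares are therefore not like for like. Of these 12, 1 passed as lower (background 19.4%) and 2 as higher (background 33.8%). It holds 4 of 17 genes of elongation and its modifying enzymes, of which EEF1E1, counted here by its name, was lower. The non-members DPH2 and DPH3, which help make the diphthamide residue of elongation factor 2, had log2 fold changes of -0.25 (adjusted p = 0.106, edgeR) and -0.22 (adjusted p = 0.204). Of 10 genes of termination and recycling it holds ABCE1 and the release factor gene ETF1 (-0.064, adjusted p = 1, edgeR, and 0.0079 on the TMM scale). Of 24 genes of cytosolic synthetases and their scaffold proteins it holds FARSA and NARS1, which did not pass, and the scaffold gene EEF1E1. Of 21 mitochondrial synthetase genes and 12 mitochondrial translation factor genes it holds 0.

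Of 27 genes of translational control the table holds 7, of which 3 were higher (background 33.8%), or 4 on the TMM scale (background 35.0%). Beside EIF2AK2 and EIF4EBP2 this was PDCD4, an inhibitor of the helicase eIF4A, with 44.3, 41.7 and 37.4 TPM with vehicle against 47.2, 54.9 and 55.8 TPM with SSD. The PDCD4 groups did not overlap, and its log2 fold change was 0.39 ± 0.0826 (SE, adjusted p = 0.0189, edgeR). Its adjusted p was 0.0986, 0.0948 and 0.106 when vehicle replicate 2, vehicle replicate 3 and SSD replicate 2 were each left out. In limma on log2(TPM + 1) the adjusted p of PDCD4 was 0.128. The others did not pass: FMR1, an mRNA-binding repressor, at 0.31 (adjusted p = 0.0605, and 0.0134 on the TMM scale), BZW2, an eIF5 mimic, at -0.17 (adjusted p = 0.0775), and the RNA-binding LARP4 and CPEB4. Of 30 genes induced by ATF4, the transcription factor whose mRNA is translated when eIF2 is phosphorylated, the table holds 3. The background is 1099 of all 11289 genes, with the limits named for the initiation factors. Of the 3, 2 passed as higher (background 33.8%), and an ATF4 response was not tested. CEBPB, a transcription factor, was higher (80.1 ± 8.01 against 113 ± 6.16 TPM, SD, n = 3), with a log2 fold change of 0.50 (adjusted p = 0.00385, edgeR). SLC7A11, the cystine transporter, was also higher (65.2 ± 2.18 against 78.7 ± 5.26 TPM, SD, n = 3), at 0.28 (adjusted p = 0.0115, edgeR). Leaving out vehicle replicate 2 took SLC7A11 to an adjusted p of 0.0760, and in limma on log2(TPM + 1) it was 0.117. By contrast, the glutamine transporter gene SLC38A2 lay at -0.064 (adjusted p = 1, and 0.0064 on the TMM scale). Both CEBPB and SLC7A11 have other known regulators.

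The counts over the table summed to 3084337 to 4640114 per library and covered 30.1% to 33.1% of each library's TPM, so that they are not library depth. Members had means of 903 to 19968 counts per library. Of markers checked for the labelled cell type, the table holds 1 of 7 gastric or intestinal genes (TFF1, 70.0 to 81.5 TPM under vehicle and 33.3 to 53.5 TPM under SSD), 2 of 6 mesenchymal genes and 0 prostate, leukocyte or endothelial genes. The mesenchymal genes were VIM (4.32 to 7.5 TPM under vehicle and 9.44 to 12.2 TPM under SSD) and COL1A1. COL1A1 overlapped between the groups, with 12.83 to 15.76 TPM under vehicle and 10.0 to 14.85 TPM under SSD. Most markers lie outside the table and could not be read, and the part of TFF1 or of cell state in the results was not tested. GENCODE release 29 lists pseudogene copies for 10 of the 21 members and exons on the opposite strand that overlap those of 12, and whether counting used strand is not given in the sources used here. Members EIF5, EIF2B2 and EIF2S1 lie on chromosome 14, with EIF5 higher and EIF2S1 lower under SSD.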

How the data were processed

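RNA-seq was analysed for 6 libraries of AGS cells, whose columns were matched by name to the titles of the samples. The estimated counts were deposited by the authors per gene and library, not normalized, and 33.5% of them are not whole. They were rounded here. The TPM values were computed and deposited by the authors, who used an online platform and scaled over all genes of a library. The labels name GRCh38.p13, and the aligner and counting program are not given in the sources used here. The authors' p-values and adjusted p-values were read only to find how the table was chosen and how many of its genes passed. Their ranks give 11289 tested genes, the largest p in the table is 0.00535, and 1055 genes had an adjusted p under 0.05. The authors' fold changes and group means were not used.

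The test was edgeR 4.0.16's quasi-likelihood test (R 4.3.3). The scale between libraries was the median over 1029 genes (at least 5 TPM in every library) of each library's ratio of count to TPM. The Benjamini-Hochberg adjustment covered 11289 genes, with p assumed larger for genes that the table lacks, and calls need an adjusted p under 0.05. The refitted p of NARS1 was 0.294 (edgeR), above the largest authors' p in the table, so that genes outside may rank among its genes. In that case the adjusted p-values are upper bounds, which was not tested. filterByExpr removed no gene of the 1099. Alternatives were TMM, DESeq2's size factors, table totals, DESeq2 1.42.0's own Wald test, no filter or a mean of at least 500 counts, adjustment over the table alone, a replicate block, each library left out, and limma 3.58.1 on log2 TPM with a pseudocount of 1 or of 0.1. The test was checked on simulated data. Per-library values are given for members with an adjusted p under 0.05, topped up to 14 by p, and list genes that are no members are named where they pass or where few are held. The latter, the motifs and the ratios were chosen with values seen. The members and lists were chosen with earlier results of these data known. Gene positions are those of GENCODE release 29 (GRCh38), joined by Ensembl identifier. The check of epithelial markers is not reported here.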

Additional observations from a re-analysis of the deposited data

How the results depend on the processing

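The direction of the median log2 fold change of the members was negative under every setting run, and no called member changed sign. The number of members called lower (4) was 1 on the TMM scale, with table totals, with the DESeq2 Wald test and in limma on log2(TPM + 1), and 0 with DESeq2's size factors, with the replicate block and in limma on log2(TPM + 0.1), where 4, 9 and 12 members were lower at an unadjusted p under 0.05. It was 11 with adjustment over the table alone. The number called higher (4) was 1 with the replicate block, and 0 in limma with either pseudocount, where 3 were higher at an unadjusted p under 0.05 in both. In the main fit (edgeR), 983 of the 1099 genes of the table and 15 of the 21 members had an unadjusted p under 0.05. Most genes of the table thus passed that limit, and such counts are not particular to the members. With each library left out in turn, 0 to 4 members were lower and 1 to 4 higher, with 0 lower without vehicle replicate 2 or 3 and 1 higher without the same libraries or SSD replicate 2. The median of the members was -0.057 on the TMM scale, -0.038 with DESeq2's size factors, -0.075 with table totals and -0.037 with the Wald test, and -0.15 to -0.11 with a library left out. Over all genes of the table, 213 were lower and 371 higher. The lower genes were 87 on the TMM scale, 86 with DESeq2's size factors, 126 with table totals, 113 with the Wald test, 579 with adjustment over the table alone, 93 with the replicate block, 60 and 52 in limma at the larger and smaller pseudocount, and 78 to 284 with a library left out. The higher genes were 186 with the replicate block, 122 and 117 in limma, and 171 to 382 with a library left out. NARS1 turned to 0.018 on the TMM scale, 0.037 with DESeq2's size factors and 0.037 with the Wald test, and EIF5B to 0.013 with both of the latter. The cause of these differences was not tested. Deviations of libraries with the same number had correlations of -0.057, 0.023 and 0.024 over genes, against -0.12 to 0.11 for libraries with different numbers. With 3 libraries per group these values cannot show whether the libraries were paired, and the labels do not say. Among 336 values of single members, 261 kept their direction and side of the threshold, 62 fell short of it, 8 newly passed and 5 changed sign. Of the 261, 21 came from the setting without a filter, which repeats the main fit and could not differ. Adjustment over the table alone also keeps the fold changes of the main fit, so that no sign could change there.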
